A study of Mus musculus with 16 samples.

Results

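The 10 messages of the translation machinery and its neighbours followed here were Eef1a1, Eef1b2, Eef1d, Eef1g, Eef2, Pabpc1, Tpt1, Rack1, Naca and Nap1l1. They were chosen as elongation factor and other known TOP messages that do not encode ribosomal proteins, and they are 10 of the 48158 genes in the data. The values come from hepatocytes of FVB mice, isolated with cycloheximide, a drug that holds ribosomes on the message. Mice were fed either normal chow or, for 4 weeks, a diet containing DDC, which injures the liver. From each diet, polyadenylated RNA was sequenced from the cytoplasm and from 3 sucrose gradient fractions: monosomes, which carry 1 ribosome, light polysomes with 2 to 4, and heavy polysomes with more than 5. Each of the 8 combinations of diet and RNA pool had 2 libraries, 16 in all, and no genotype or allele differed between the groups by the labels. Whether each library came from 1 mouse is not given, so p-values measure the spread between these libraries, and that spread may be partly technical. The spread was pooled over all 8 groups, so an SE is not the error of the compared libraries alone.

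A TOP message begins with a cytidine at its cap followed by a run of pyrimidines. As background, such messages move between ribosome-poor and ribosome-rich states together with growth signals: when mTORC1 is inactive, LARP1 binds the cap and the pyrimidine run and holds them back from initiation, and active mTORC1 releases them. Most TOP messages encode ribosomal proteins, and the others encode mainly elongation factors and proteins that work on or beside the ribosome.

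Windows near the annotated start of 1 transcript from each of 5 members are shown because a pyrimidine run at the start defines the class. They show where such a run lay. They were read from GENCODE M21 transcripts (build GRCm38). Each window of 30 bases is printed 5′ to 3′ on the transcript's strand, and capitals mark the first run of at least 7 bases that starts with C and continues with C or T only. Among the transcripts holding at least 5% of a member's signal, the one whose run lay nearest its start was taken.
Rack1-201, chr11:48800360-48800389, plus strand, run at base 1: CTTTTTCTCCacagggtcgtggtggcagcc
Pabpc1-201, chr15:36608944-36608973, minus strand, run at base 1: CCCCTTCTCCCCggcggttagtgctgagag
Nap1l1-201, chr10:111473223-111473252, plus strand, run at base 5: gggtCTTTTTTagcgccatctgctcgcggc
Tpt1-204, chr14:75845902-75845931, plus strand, run at base 8: gccatCCTCTTTCCgggcgaacggggacat
Eef1a1-201, chr9:78481647-78481676, minus strand, run at base 54: acgttCTTTTTCgcaacgggtttgccgtca

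Among the 5 windows shown, the annotated starts of Rack1-201 and Pabpc1-201 opened directly with the run, and those of the 3 others did not. Tpt1-204 is a processed transcript without a coding annotation. Its window lies inside the Tpt1 gene, whose annotated start is chr14:75845093. The start of the coding Tpt1-201, with 73.1% of the signal, is not shown, so this window is not given as the start of the coding message. With a shorter run allowed, of C and at least 4 further pyrimidines, the most abundant transcript of 2 of the 10 members (Rack1 and Pabpc1) began with it. Of the most abundant transcripts of all 11790 genes tested, 2.36% did so, and so did 9 of those of 82 ribosomal protein genes. A run of 7 or more somewhere in the first 100 bases is common, at 35.5% of these transcripts, so the run of Eef1a1 lies within a frequent pattern. The starts are those of the annotation and were not measured in these libraries, and the search covered the transcript's strand only.

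Values are FPKM, fragments counted relative to transcript length and library size, as deposited per transcript and here summed per gene. An FPKM is a share of its pool, not an amount per cell, and fewer cells of a type cannot be told apart from less RNA per cell. The libraries sum to between 375145 and 1386166 FPKM, lowest in the cytoplasm and highest in the chow heavy polysomes. All 10 members passed the filter of at least 1 FPKM in at least 2 libraries. No counts were used, but the smallest values of genes with a single transcript fall in steps, from which the members were estimated to rest on 156 fragments (Nap1l1) to 269665 fragments (Eef1a1) per library. The 4 chow libraries numbered 1, called here the first chow preparation, come from CH1 in the cytoplasm and CH1_CH2 in the fractions by the labels, so their source overlaps without being the same. All 4 listed the female transcript Xist above 0 and the Y-linked Ddx3y at 0, and the 12 others showed the reverse. Hepatocyte markers were abundant in every pool, although Serpina1a, Apoa1 and Ttr were listed at 0 in some groups. In the cytoplasm they summed to 12400 to 16700 FPKM in chow and 10700 to 16600 in DDC. On monosomes the sums were 12600 to 13800 against 7150 to 9550 FPKM. Light polysomes gave 11800 to 11900 against 6280 to 9960 FPKM, and heavy polysomes 32000 to 35100 against 11400 to 16100. Apoa1 was listed at 0 in all DDC fractions, so these sums do not rest on the same genes. Summed macrophage markers reached 58.1 to 411 FPKM in chow and 489 to 5110 FPKM in DDC libraries, and stellate cell and fibroblast markers 12.7 to 41.9 and 70.5 to 176 FPKM. Ductal markers did not exceed 0.978 FPKM in chow, with 3 to 6 of 7 at 0, and reached 12.2 to 110 FPKM in DDC. Lymphocyte markers did not exceed 1.55 FPKM. The part of these other cell types in the diet comparisons was not tested.

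In chow-fed livers, most of these messages stood highest on monosomes. Together the 10 made up 1.78% and 1.6% of all FPKM in the chow monosome libraries, 0.765% and 0.809% in chow cytoplasm, 0.416% and 0.441% on light polysomes and 0.401% and 0.361% on heavy polysomes. After DDC the monosome share was 1.1% and 0.57%, the cytoplasmic share 0.793% and 0.857%, the light share 0.367% and 0.438% and the heavy share 0.52% and 0.729%. The chow monosome libraries lay above every other library, and the DDC heavy libraries lay above both chow heavy libraries.

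**Figure D1:**
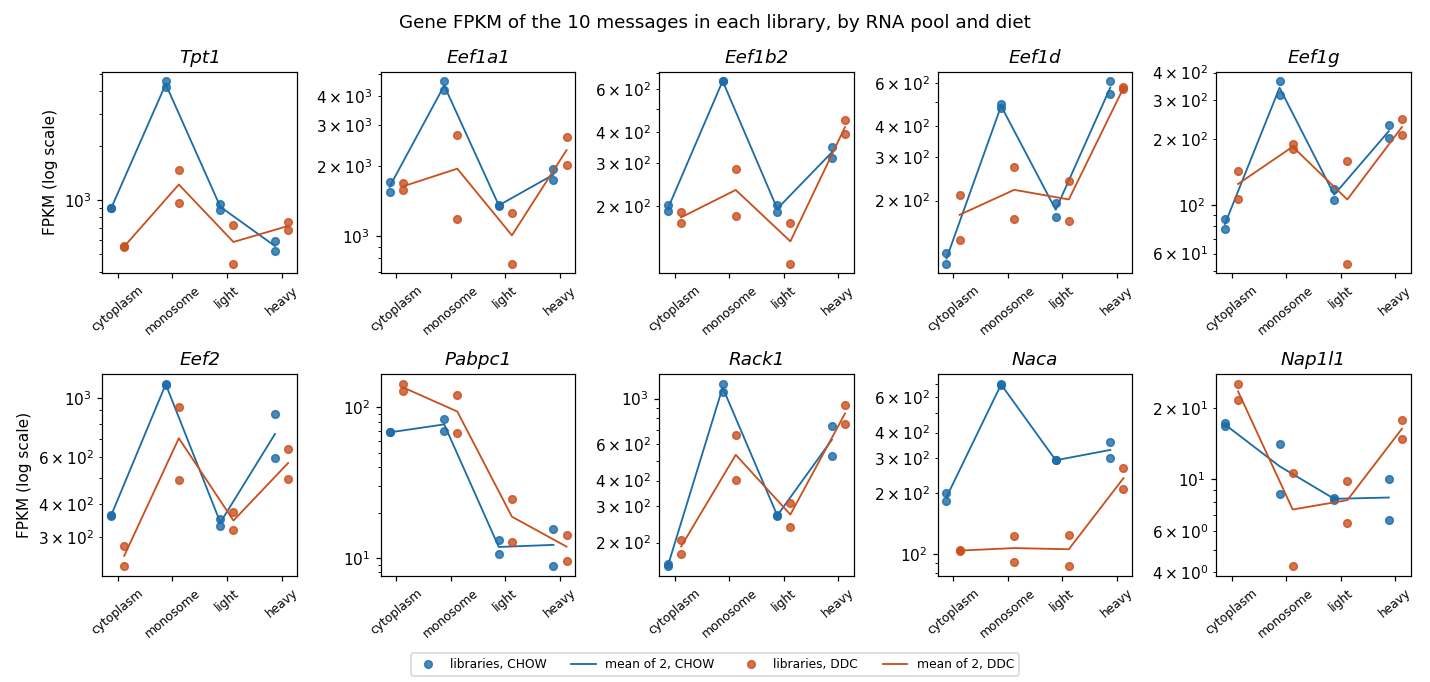
FPKM (log axis) of each of the 10 messages in the cytoplasm, monosomes, light and heavy polysomes; points are single libraries, lines join the means of 2, blue for chow and orange for DDC. Chow monosomes give the highest values of Tpt1, Eef1a1, Eef1b2, Eef1g, Eef2, Rack1 and Naca, whereas Pabpc1 and Nap1l1 are highest in DDC cytoplasm and Eef1d on heavy polysomes.

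The first question was how the diet moved each message within each pool. On monosomes, 6 of the 10 messages fell with DDC and none rose: Tpt1, Eef1a1, Eef1b2, Eef1d, Rack1 and Naca (limma on log2(FPKM + 1), Benjamini-Hochberg adjusted p under 0.05 over all genes tested). Of all genes tested, 15.9% were called lower and 21% higher on monosomes. The median change of the 10 was −1.15 on the log2 scale, beside 0.04 for all genes. Without the second DDC monosome library 3 calls remained, those of Tpt1, Eef1b2 and Naca, and these also remained without the first chow preparation.

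Eef1a1, which carries aminoacyl-tRNA to the ribosome, stood at 4644 and 4235 FPKM on chow monosomes and at 2712 and 1184 on DDC monosomes. Its change was −1.31 ± 0.35 (SE, limma adjusted p = 0.0131). The 2 diets did not overlap, but the DDC libraries differed from each other by more than the chow libraries did. Without the second DDC monosome library the change was −0.71 (limma adjusted p = 0.124).

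Eef1b2, Eef1d and Eef1g encode the subunits of the complex that reloads eEF1A with GTP. Eef1b2 stood at 650 FPKM in both chow monosome libraries and at 283 and 181 in the DDC ones, a change of −1.52 ± 0.25 (limma adjusted p = 0.000793). Eef1d stood at 474 and 493 FPKM against 273 and 169, a change of −1.17 ± 0.28 (limma adjusted p = 0.00741). Both fell, with no overlap between the diets. Eef1g, at 316 and 366 against 179 and 189 FPKM, did not pass the test (−0.89 ± 0.38, limma adjusted p = 0.0851), although its summed values did not overlap either. Its coding transcript Eef1g-201 did overlap between the diets, at 177.2 and 230.1 FPKM in chow against 178.9 and 159.5 in DDC. The retained-intron transcript Eef1g-205 stood at 139.2 and 136.0 against 0.012 and 29.44 FPKM.

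Eef2, the translocase of elongation, stood at 1132 and 1120 FPKM on chow monosomes and at 921 and 492 after DDC. Its change did not pass (−0.74 ± 0.30, limma adjusted p = 0.0679).

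Tpt1, which encodes translationally controlled tumour protein, showed the second largest fall. It stood at 4563 and 4201 FPKM on chow monosomes and at 1465 and 966 on DDC monosomes, a change of −1.88 ± 0.27 (limma adjusted p = 0.000319). In the ranking of all genes by this change, 3.1% lay below it. Rack1, a scaffold bound to the small ribosomal subunit, stood at 1081 and 1181 against 664 and 403 FPKM (−1.13 ± 0.27, limma adjusted p = 0.00707). With protein-coding transcripts only, the change was −0.65 (limma adjusted p = 0.0559).

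Naca, the alpha subunit of the nascent polypeptide-associated complex, fell furthest. It stood at 700 and 686 FPKM on chow monosomes and at 122 and 91.0 on DDC monosomes, a change of −2.70 ± 0.24 (limma adjusted p = 1.8e-05), with 1.0% of all genes below it. Naca also fell in the cytoplasm, from 183 and 199 to 103 and 104.5 FPKM (−0.88 ± 0.24, limma adjusted p = 0.0198). On light polysomes it fell from 291 and 292 to 86.4 and 124 FPKM (−1.48 ± 0.24, limma adjusted p = 0.000774). On heavy polysomes it stood at 297 and 358 against 209 and 265 FPKM, without overlap, and did not pass the test (−0.47 ± 0.24, limma adjusted p = 0.175). Naca was thus the only member called by diet in more than 1 pool. Its cytoplasmic call was lost when any of the 4 cytoplasmic libraries was left out, without the first chow preparation (limma adjusted p = 0.162) and with all libraries scaled to the same total (−0.67, limma adjusted p = 0.0714).

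The summed monosome values of Pabpc1, the cytoplasmic poly(A)-binding protein, and of Nap1l1, a histone chaperone, overlapped between the diets. The share of all genes with such an overlap was not computed. Pabpc1 stood at 69.99 and 84.0 FPKM on chow monosomes and 67.4 and 120 after DDC. Nap1l1 stood at 14.0 and 8.61 FPKM against 10.6 and 4.24.

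In the other pools few members were called. In the cytoplasm only Naca was, where 22.4% of all genes were called in either direction and 9.68% were lower. The members' median there was 0.15, but −0.25 with protein-coding transcripts only. Cytoplasmic Pabpc1 stood at 68.2 and 68.1 FPKM in chow and at 144 and 128 after DDC, without overlap (0.98 ± 0.37, limma adjusted p = 0.0754). It passed with equal library totals (1.19, limma adjusted p = 0.0421) and after quantile normalization (1.28, limma adjusted p = 0.019). Cytoplasmic Tpt1 stood at 899 and 895 against 549 and 553 FPKM (−0.70 ± 0.27, limma adjusted p = 0.0809), and passed when only protein-coding transcripts were summed (−1.01, limma adjusted p = 0.0402).

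On light polysomes Naca was again the only member called, where 30.1% of all genes were called and 13.5% were lower. The members' median was −0.15, and it was 0.16 with equal totals. Eef1b2 on light polysomes passed with protein-coding transcripts only (limma adjusted p = 0.00315, against 0.179 for the sum). Without the second DDC light library 3 members were called lower, and without either DDC monosome library 2 were.

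On heavy polysomes no member was called in either direction, where 24.8% of all genes were. Before adjustment, 1 member (Nap1l1) had a limma p under 0.05. The median of the 10 was 0.20. Rack1 stood at 734 and 528 FPKM in chow heavy polysomes and at 935 and 756 after DDC, and Nap1l1 at 6.67 and 9.97 against 14.8 and 17.8, each without overlap. Tpt1, Eef1a1 and Eef1b2 were also higher without overlap, and Naca was lower without overlap. The share of all genes without overlap was not computed. Calls on heavy polysomes moved with the scaling. With all libraries set to the same total, Tpt1 (0.87), Eef1b2 (0.84), Rack1 (0.94) and Nap1l1 (1.32) were called higher, and after quantile normalization Tpt1 (0.86) and Rack1 (0.94) were.

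**Figure D2:**
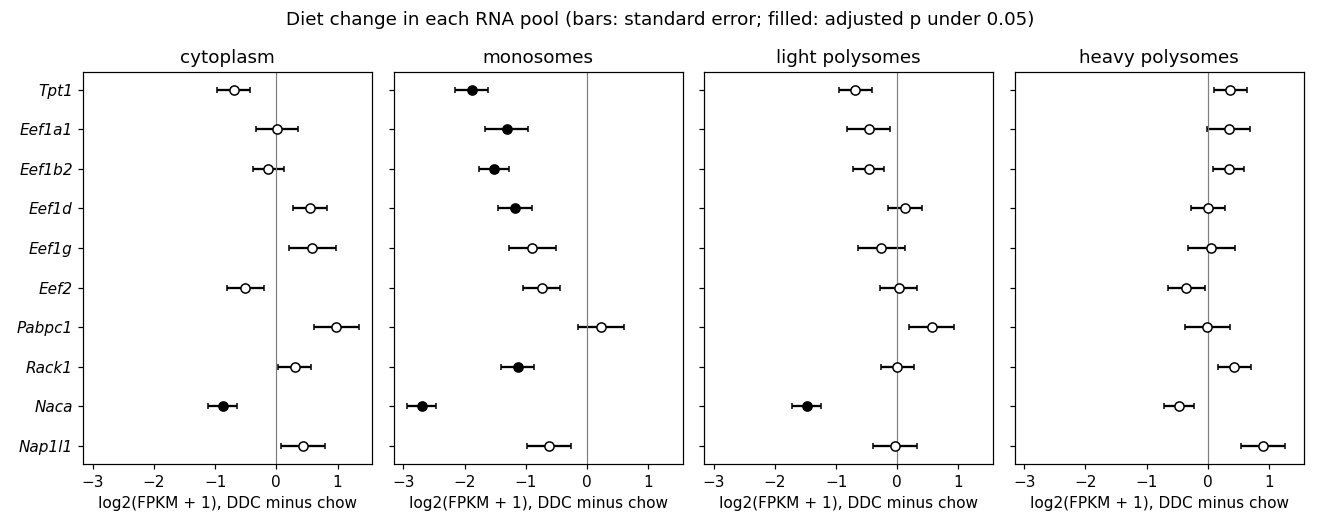
Change with diet of each message in 4 RNA pools, as DDC minus chow in log2(FPKM + 1), with standard errors; filled points have a limma adjusted p under 0.05. On monosomes 6 points are filled, all below 0, and on heavy polysomes none is.

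The second question was where along the gradient each message sat. In chow, 9 of the 10 messages were lower on light polysomes than on monosomes, all but Nap1l1, whereas 5.13% of all genes were. The median of the 10 was −1.72, beside 0.06 for all genes. Tpt1 dropped from 4382 ± 256 to 914 ± 44.6 FPKM (mean ± SD, n = 2; −2.26 ± 0.27, limma adjusted p = 0.000696), and Rack1 from 1131 ± 70.8 to 270 ± 1.26 FPKM (−2.06 ± 0.27, limma adjusted p = 0.00127). The median stayed between −1.64 and −1.85 under all settings. The number of calls was 5 without the first chow light library and 0 without the first chow preparation, where each chow group has a single library.

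In DDC, 2 messages were lower on light polysomes than on monosomes, Tpt1 (−1.07 ± 0.27, limma adjusted p = 0.0488) and Pabpc1 (−2.27 ± 0.37, limma adjusted p = 0.00706), where 0.884% of all genes were. The 2 DDC preparations differed. The light to monosome ratio of Eef1a1 was 0.28 in the first and 1.06 in the second, that of Rack1 0.358 and 0.769, and that of Naca 0.707 and 1.36. In chow the 2 preparations lay close, with ratios of 0.293 and 0.318 for Eef1a1. With the second DDC preparation left out, a setting added after the values had been seen, 5 members were called lower on light polysomes than on monosomes, and Pabpc1 was not among them (limma adjusted p = 0.093). With single libraries left out the count ran from 1 to 5, and with the replicate block Eef2 also passed (−0.96, limma adjusted p = 0.0327).

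Between heavy polysomes and monosomes in chow, 6 messages were lower on heavy polysomes: Tpt1, Eef1a1, Eef1b2, Pabpc1, Rack1 and Naca. Among all genes 21.1% were lower, and the members' median was −0.92. Tpt1 fell to 520 and 587 FPKM, a change of −2.98 ± 0.27 (limma adjusted p = 1.1e-05). Eef2 did not pass (−0.64, limma adjusted p = 0.0983), and passed with the replicate block (limma adjusted p = 0.0379), with equal totals (−1.44, limma adjusted p = 0.00229) and after quantile normalization (−1.36, limma adjusted p = 0.00216). Eef1d, at 610 and 539 FPKM on heavy polysomes against 474 and 493 on monosomes, was the single member whose mean was higher on heavy polysomes (0.25 ± 0.28, limma adjusted p = 0.523). Without the first chow preparation only Tpt1 and Pabpc1 were called.

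In DDC, 4 messages were higher on heavy polysomes and 1 was lower. Eef1b2 (0.89 ± 0.25, limma adjusted p = 0.0178), Eef1d (1.41 ± 0.28, limma adjusted p = 0.00294), Naca (1.15 ± 0.24, limma adjusted p = 0.00323) and Nap1l1 (1.15 ± 0.36, limma adjusted p = 0.0282) were higher on heavy polysomes than on monosomes, and Pabpc1 was lower (−2.85 ± 0.37, limma adjusted p = 0.00021). Among all genes 18.2% were called higher and 14.5% lower. The members' median was 0.54. These calls depend on the scaling: with equal totals Eef1d alone stayed higher while Tpt1, Eef2 and Pabpc1 were lower, with a median of −0.06, and after quantile normalization none was higher and the same 3 were lower, with a median of −0.19. With the replicate block Tpt1 was called lower as well (−0.73, limma adjusted p = 0.0487). Without the second DDC monosome library, and without the second DDC heavy library, 2 members were called higher.

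The 2 polysome fractions were compared next. In chow 4 were higher on heavy than on light polysomes, Eef1b2, Eef1d, Eef2 and Rack1, where 16% of all genes were, and in DDC 6 were, Eef1a1, Eef1b2, Eef1d, Eef1g, Rack1 and Naca, where 12.1% were. Eef1d had 3.11 and 3.15 times as much FPKM on heavy as on light polysomes in the chow preparations and 3.43 and 2.42 times in the DDC ones. For Rack1 the ratios were 2.72 and 1.94 in chow and 3.94 and 2.44 in DDC. Tpt1 had ratios of 0.59 and 0.621 in chow and 1.53 and 1.04 in DDC. The members' median in chow was 0.60, beside −0.03 for all genes, but −0.07 with equal totals, 0.09 after quantile normalization and 0.15 with protein-coding transcripts only. In DDC it was 1.21, beside −0.01 for all genes, and 0.72 with equal totals. With equal totals the counts of members higher on heavy polysomes were 1 in chow and 3 in DDC, and in chow 1 was called without the first chow heavy library and 2 without either chow light library. With the replicate block, Eef1g in chow (limma adjusted p = 0.0312) and Eef2 (limma adjusted p = 0.0398) and Nap1l1 (limma adjusted p = 0.0473) in DDC also passed.

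Pabpc1 was low on both polysome fractions in both diets. It stood at 68.1 to 144 FPKM in the 4 cytoplasmic libraries and 67.4 to 120 on monosomes, but at 10.6 to 24.7 on light and 8.77 to 15.6 on heavy polysomes. The polysome libraries lay below every cytoplasmic and monosome library. Heavy against monosome ratios were 0.223 and 0.104 in chow and 0.141 and 0.119 in DDC. The Pabpc1 call between heavy polysomes and monosomes passed under every scaling in both diets.

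The third question was whether the diet changed the placement itself. The difference between diets in the heavy against monosome change was called for 3 members, all with a higher value in DDC: Tpt1 (2.25 ± 0.38, limma adjusted p = 0.0193), Naca (2.24 ± 0.33, limma adjusted p = 0.0165) and Eef1b2 (1.86 ± 0.35, limma adjusted p = 0.0251). All 3 were lower on DDC than on chow monosomes, and none was called by diet on heavy polysomes. Of all genes, 0.996% were called higher in this difference. The median over the 10 was 1.55, beside −0.03 for all genes, and it lay between 0.86 and 2.01 under all settings.

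Within single preparations, the heavy to monosome ratio of Tpt1 was 0.114 and 0.14 in chow and 0.462 and 0.782 in DDC. That of Naca was 0.425 and 0.522 in chow and 1.71 and 2.92 in DDC, and that of Eef1b2 was 0.484 and 0.536 against 1.39 and 2.47. Both DDC preparations lay above both chow preparations for every member except Eef2 and Pabpc1. The share of all genes separated in this way was not computed, so this is a description of the members only. For Eef2 the ratios overlapped, at 0.768 and 0.533 against 0.698 and 1.01. The median gene, among those with at least 1 FPKM in both pools, had ratios of 1.32 and 1.17 in chow, and its ratio did not exceed 1.25 in DDC.

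Rack1 (1.56 ± 0.38, limma adjusted p = 0.0559) missed the threshold and passed with equal totals (1.76, limma adjusted p = 0.0273), quantile normalization (1.58, limma adjusted p = 0.0255) or the replicate block (limma adjusted p = 0.0333). No member was called in this comparison without the first chow preparation, or when only the groups of the comparison were fitted. Without the second chow monosome library 1 member was called, and without the first DDC monosome library 6 were. With the second DDC preparation left out, the same 3 genes kept their calls, at 1.87 for Tpt1, 1.86 for Naca and 1.44 for Eef1b2.

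The same difference taken between heavy polysomes and cytoplasm was called for no member, where 0.102% of all genes were called. Its median over the 10 was 0.24. For Naca it was 0.41 ± 0.33 (limma adjusted p = 0.677) and for Tpt1 1.07 ± 0.38 (limma adjusted p = 0.331). Before adjustment, 1 member (Tpt1) had a limma p under 0.05.

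**Figure D3:**
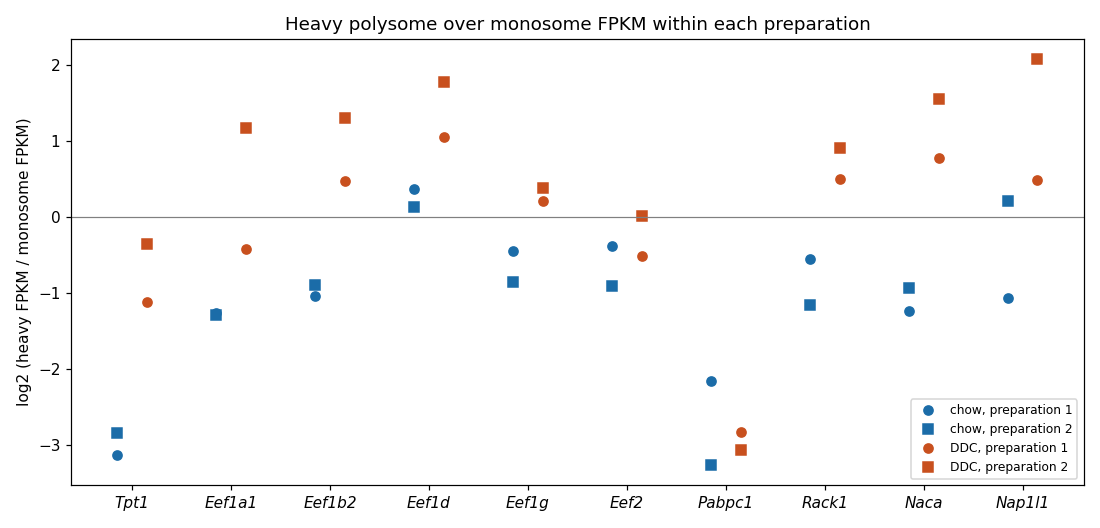
Heavy polysome FPKM divided by monosome FPKM within each preparation, on a log2 axis; circles and squares are the first and second preparation, blue for chow and orange for DDC. The orange points lie above the blue ones for 8 of the 10 messages and overlap or lie below them for Eef2 and Pabpc1. The share of all genes separated in this way was not computed.

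The shift of these messages was set beside that of ribosomal protein genes, the main TOP class. Of 82 ribosomal protein genes, 69 were lower on DDC than on chow monosomes and none higher, with a median of −1.41, beside −1.15 for the 10 messages, where 15.9% of all genes were lower. On heavy polysomes 3 were higher and 4 lower, a smaller share than the 24.8% of all genes called there. From chow monosomes to chow light polysomes 70 were lower and 1 was higher, where 5.13% of all genes were lower. The difference between diets in the heavy against monosome change was called higher in DDC for 32 of the 82 and lower for none. Of all genes, 0.996% were called higher in it. The median of the 82 was 1.57, beside 1.55 for the 10.

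**Figure D4:**
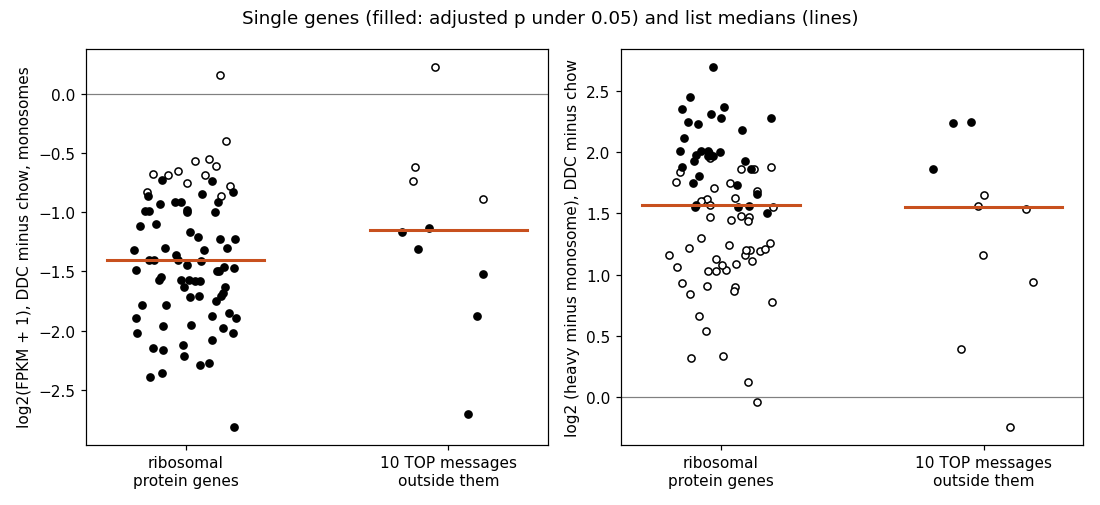
Left, change with DDC on monosomes; right, difference between diets in the heavy against monosome change, both in log2 units; each point is a gene, filled where its limma adjusted p is under 0.05, and lines mark medians. The medians of ribosomal protein genes and of the 10 messages are −1.41 and −1.15 on the left and 1.57 and 1.55 on the right.

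Of 9 further messages listed as TOP or TOP-like, 6 were lower on DDC monosomes, where 15.9% of all genes were lower and 21% higher: Eif4b, Eif3e, Eif3h, Eif3f, Npm1 and Ipo7. Eif4b, a helper of the initiation helicase, changed from 65.1 to 25.8 FPKM (−1.30 ± 0.22, limma adjusted p = 0.000994), and Eif3e, a subunit of initiation factor 3, from 58.9 to 14.3 FPKM (−2.03 ± 0.36, limma adjusted p = 0.00127). In the cytoplasm Eif4b was lower as well, at 16.3 against 36.7 FPKM (−1.12 ± 0.22, limma adjusted p = 0.00435). Eif3e was not called there (−0.78 ± 0.36, limma adjusted p = 0.149). Vim, the intermediate filament of mesenchymal cells, was higher, at 34.4 against 2.97 FPKM (3.31 ± 0.49, limma adjusted p = 0.000381), and macrophage and stellate cell markers were higher in the same libraries; their part in this result was not tested.

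The 16-library profile of the 10 messages was compared with that of other abundant genes. Among 4114 genes compared, 67 of the 100 with the highest correlation to the members' mean profile were ribosomal protein genes, of which 82 were compared. Outside the listed ribosomal protein genes, the 5 closest protein-coding genes were Eif3h (r = 0.881), Nop53 (r = 0.846), Gm10260 (r = 0.814), Arpc1a (r = 0.763) and Eif3f (r = 0.754). Eif3h and Eif3f are also among the further TOP or TOP-like messages above. These values describe 16 libraries that share diets, pools and preparations. Among the members, the correlation of each with the mean of the others ran from 0.604 (Eef1d) to 0.955 (Eef1a1), except for Pabpc1 (−0.049) and Nap1l1 (−0.043).

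The diet calls of partners and relatives of the members were counted next. Of 19 tested, 3 were lower and 2 higher on DDC monosomes, where 37% of all genes were called in either direction. On light polysomes 3 were lower and 2 higher, where 30.1% of all genes were called. On heavy polysomes 1 was lower and 2 were higher, where 24.8% were called. None was called in the cytoplasm, where 22.4% were. Btf3, the partner of Naca in the nascent chain complex, stood at 178 ± 11.7 FPKM on chow monosomes and 82.2 ± 7.77 on DDC monosomes (−1.10 ± 0.23, limma adjusted p = 0.0035), and it was also lower on light polysomes (−0.85, limma adjusted p = 0.0168). Unlike Naca, Btf3 was higher on heavy polysomes than on monosomes in chow too (1.01, limma adjusted p = 0.00415), and the difference between diets was not called for it (0.79, limma adjusted p = 0.211). Paip1, which binds the poly(A)-binding protein, was lower on DDC monosomes (13.5 against 27.9 FPKM, limma adjusted p = 0.00754), as was Eef1e1 (2.90 against 6.12 FPKM, −0.84, limma adjusted p = 0.0386). Pabpc4, a relative of Pabpc1, was higher on DDC light polysomes (10.03 against 3.33 FPKM, 1.36, limma adjusted p = 0.0482). Eif5a, which helps the ribosome through difficult peptides, was higher on heavy polysomes than on monosomes in chow (969 against 400 FPKM, limma adjusted p = 0.00265) and in DDC (1090 against 505 FPKM, limma adjusted p = 0.00771) with no diet call in any pool. Nap1l4, a relative of Nap1l1, was higher on heavy polysomes than on monosomes in DDC (1.03, limma adjusted p = 0.00359). Eef1a2, the muscle and neuron form of eEF1A, was listed at 0 in both chow light and both chow heavy libraries and stood at 14.1 ± 13.7 FPKM on DDC heavy polysomes (limma adjusted p = 0.0016).

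Among 28 tested regulators of TOP messages and of mTORC1, 5 were higher and 5 lower on DDC monosomes, near the 21% and 15.9% of all genes. On monosomes the list as a whole thus lay near the background. In the cytoplasm 0 were higher and 5 lower, where 9.68% of all genes were lower and 22.4% were called in either direction. On light polysomes 5 were higher and 4 lower, where 30.1% of all genes were called. On heavy polysomes 3 were higher and 1 lower, where 24.8% were called. The genes below are given as single values. Larp1 itself was called by diet in no pool, and stood at 15.2 ± 2.80 FPKM in chow and 12.4 ± 1.27 in DDC cytoplasm. Mtor was lower on DDC heavy polysomes (2.94 ± 1.38 against 6.65 ± 2.12 FPKM, limma adjusted p = 0.0458). Eif4ebp1, the repressor of the cap-binding protein that mTORC1 phosphorylates, was higher on DDC monosomes (125 ± 32.9 against 67.7 ± 3.83 FPKM, limma adjusted p = 0.0247) and light polysomes (limma adjusted p = 0.039). Deptor, an mTOR inhibitor, was lower in the cytoplasm (1.88 against 12.6 FPKM, −2.24, limma adjusted p = 6.96e-05), on monosomes (−1.82, limma adjusted p = 0.000156) and on light polysomes (limma adjusted p = 0.00662). Ddit4, an inhibitor of mTORC1 signalling induced by stress, was higher on light polysomes (9.15 against 1.35 FPKM, 2.11, limma adjusted p = 0.00199) and on heavy polysomes (1.58, limma adjusted p = 0.0115). Cnbp, a nucleic acid binding protein, was lower in the cytoplasm (93.1 against 193 FPKM, limma adjusted p = 0.0151) and on monosomes (57.4 against 187 FPKM, limma adjusted p = 0.000609). These are message levels and say nothing of protein activity.

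Several members draw their sum from more than their coding transcript, and the split between overlapping transcripts is an estimate made by the authors' software. Transcripts not annotated as protein-coding held 70.2% of the Eef1b2 signal, chiefly Eef1b2-205, annotated for nonsense-mediated decay, with 58.7%. They held 36.1% for Rack1, 28.6% for Eef1g, 26.9% for Tpt1 and 15.5% for Eef1a1. Eef1a1-204, a processed transcript, stood at 2.59 and 0 FPKM in chow cytoplasm and at 569 and 454 in DDC cytoplasm. Coding Eef1a1-201 stood at 1536 and 1709 against 1125 and 1112 FPKM there, without overlap. The summed Eef1a1 value changed by 0.01 in the cytoplasm. Tpt1-204, a processed transcript, was listed at 0 in both chow cytoplasm libraries and at 1407 and 973 FPKM on chow monosomes. Coding Tpt1-201 stood at 3154 and 3226 FPKM on chow monosomes and at 1018 and 715 on DDC monosomes. Rack1-201, which codes for the protein, stood at 662 and 694 against 533 and 349 FPKM, and the non-coding Rack1-202 at 417 and 481 against 127 and 49.8 FPKM. Eef1b2-209 stood at 182 and 149 against 41.7 and 32.6 FPKM. Of the Tpt1 pseudogenes listed, Tpt1-ps3 had the highest value, 49.4 FPKM in 1 library. Whether reads were shared between Tpt1 and these copies was not tested, so the Tpt1 level is uncertain to an unmeasured extent.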

How the data were processed

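The values the authors deposited are FPKM of 117592 transcripts in 16 libraries, with Cuffnorm's scaling across libraries. Per the submitters' processing notes, reads went through Trimmomatic, STAR 2.4.2a, Cuffnorm, bcl2fastq 2.17.1.14 and Picard 1.119, named in no stated order, with GRCm38 or mm10; the annotation version is not given in the sources used here. Per the labels' protocols, libraries were stranded and polyA selected. Each transcript was matched to GENCODE M21 by identifier (99.29% matched; the others held at most 0.51% of a library's FPKM) and FPKM were summed per gene.

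limma 3.58.1 in R 4.3.3 was fitted with a mean-variance trend to log2(FPKM + 1) of the 11790 genes that reached 1 FPKM in 2 or more libraries, with 8 group means and 8 residual degrees of freedom. Fold changes are therefore on the log2(FPKM + 1) scale, which understates changes of low genes. A gene at 0 in both libraries of a group and at 100 FPKM or more elsewhere was set missing in that group, which touched 49 genes and no member. Calls need a Benjamini-Hochberg adjusted p under 0.05 over all genes of a comparison. The script was tested on simulated data, for diet on monosomes and for heavy against monosome in chow. Of 100 genes changed by 1 on the log2 scale, 24% were recovered in each. Of 100 changed by 2, 81% and 83% were, with 3 and 12 false calls. In the 16 libraries, 37% of all genes were called for diet on monosomes, a larger share than was changed in the simulated data. The recovery with so many changed genes was not tested, so these percentages describe the simulated data only. A missing call is not read here as the absence of a change. Figures and summaries used Python with pandas and Matplotlib.

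By the labels, same-numbered libraries share a preparation name across the 3 fractions of each diet; the chow cytoplasm carries only the first of the 2 names that its fractions carry. Correlations of same-numbered libraries' deviations were 0.36 to 0.76 in chow, 0.309 to 0.375 in DDC fractions and −0.099 to 0.074 between diets, so numbers pair libraries within a diet only. DDC cytoplasm carries other preparation labels and correlated at −0.051 to 0.167 with the fractions. The fit with this replicate block was an alternative. Others were pseudocounts of 0.1 and 10, other filters, equal totals, quantile and median ratio scaling, other transcript sets, zeros, fits of the compared groups only, and leaving out libraries.

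Genes were named by rule: all members, Larp1, Mtor, Eif4ebp1, Btf3, Pabpc4, Nap1l4, Eef1a2 and Eif5a, up to 3 called genes of lowest p per context list and comparison, the 5 genes with the most similar profile, and transcripts with at least 5% of a member's FPKM. Members and lists were chosen with earlier results of these data known. The start sequences of some members are not reported here.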

Additional observations from a re-analysis of the deposited data

Results flagged for a closer look

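A test of the difference between diets in the heavy polysome against monosome change passed for 3 of the 10 messages. The log2 difference was 2.25 for Tpt1, 2.24 for Naca and 1.86 for Eef1b2, each larger in DDC than in chow. In all 3 the monosome level was lower in DDC, while the heavy polysome level was called for none of them. The ratio of both DDC preparations lay above that of both chow preparations, which describes the same values that the test used. Groups of 2 libraries are too small to look for single libraries that stand apart.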

How the results depend on the processing

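The members rest on at least 156 estimated fragments per library and 2 libraries per group; neither number was varied upward, so which of them limits the calls was not tested. No called result changed its direction under any of the settings run. All libraries set to the same total moved the median of all genes by up to −0.37 between heavy polysomes and monosomes, and to 0.25 for the diet change on monosomes and 0.29 on heavy polysomes. Relative to that median, the members stood at −1.09 on DDC against chow monosomes with equal totals and −0.66 after quantile normalization, beside −1.19. The cause of the changes below was not tested. Counts are members called. With equal totals the counts were: cytoplasm 2 higher and 0 lower, heavy polysomes 4 higher with DDC, heavy against monosome in DDC 1 higher and 3 lower, heavy against light 1 higher and 1 lower in chow and 3 higher in DDC. Quantile normalization gave cytoplasm 2 higher, heavy polysomes 2 higher, heavy against monosome in DDC 0 higher and 3 lower, heavy against light 1 higher and 1 lower in chow and 3 higher in DDC, and light against monosome in DDC 4 lower. Median ratio scaling and the filter of 5 FPKM in 4 libraries each gave 2 lower for heavy against monosome in DDC and 1 lower for heavy against light in chow. Pseudocount 10 gave 1 higher in the cytoplasm, and pseudocount 0.1 or no filter 1 lower for light against monosome in DDC. Protein-coding transcripts gave 2 lower in the cytoplasm and 2 on light polysomes, and leaving out transcripts listed at 0 gave 2 lower in the cytoplasm. The replicate block gave 2 lower for heavy against monosome in DDC; it also passed Eef1g (limma adjusted p = 0.037) and Eef2 (limma adjusted p = 0.0231) for diet on monosomes, where no preparation is shared between the diets and the block has no pairing behind it. Its other changes of single calls stand beside the results, and it lost no call.

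Fitting only the groups compared gave 1 higher and 2 lower in the cytoplasm, 3 lower on monosomes, 0 higher for heavy against monosome and for heavy against light in DDC, 1 lower for heavy against light in chow, 0 lower for light against monosome in DDC and 0 for the difference between diets. Without the first chow preparation the counts were 0 lower in the cytoplasm, 3 lower on monosomes, 2 lower for heavy against monosome in chow and 2 higher in DDC, 0 for heavy against light in chow, 0 for light against monosome in both diets and 0 for the difference between diets. Without the second DDC preparation, a setting added after seeing the data, they were 2 higher and 2 lower in the cytoplasm, 1 higher and 5 lower on light polysomes, 1 lower on heavy polysomes, 2 higher and 2 lower for heavy against monosome in DDC, 1 lower for heavy against light in each diet and 5 lower for light against monosome in DDC. With single libraries left out, the lowest and highest counts were 0 and 2 lower in the cytoplasm, 3 and 8 lower on monosomes, 1 and 3 lower on light polysomes, 0 and 1 higher on heavy polysomes, 4 and 7 lower for heavy against monosome in chow, 2 and 6 higher and 1 and 2 lower in DDC, 1 and 5 higher and 0 and 1 lower for heavy against light in chow, 4 and 8 higher in DDC, 5 and 9 lower for light against monosome in chow, 1 and 5 lower in DDC, and 1 and 6 higher for the difference between diets.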
